A study of Homo sapiens with 6 samples.

Results

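The genes described here are the Wnt ligands, the proteins that process and secrete them, their receptors and co-receptors, the R-spondins and the secreted antagonists. They were chosen by a rule on gene symbols, with earlier results of these data known. The rule took every row of the count tables named WNT, FZD (frizzled), SFRP, DKK or RSPO followed by its number. It also took LRP5, LRP6, ROR1, ROR2, RYK, PORCN, WLS, WIF1 and FRZB. This gave 46 of 16779 listed genes: 16 ligands, 2 secretion genes, 4 R-spondins, 9 frizzleds, 5 co-receptors and 10 antagonists. Their mRNA was counted by RNA-seq in 6 libraries labelled A549, which is an established lung adenocarcinoma line of human origin. Of these, 3 libraries are labelled control with a wild-type genotype, and 3 are labelled as a knockout of RN7SK, the gene of the small nuclear RNA 7SK. No drug, time point or other allele is named for either group, and the labels do not say whether the knockout is a single clone, or whether the libraries of a group came from separate cultures. The p-values therefore measure only the spread between these samples, which may be technical.

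Wnt proteins are secreted, lipid-modified signals. Porcupine (PORCN) adds the lipid, Wntless (WLS) carries the ligand to the cell surface, and a frizzled receptor with LRP5 or LRP6 binds it and stabilises beta-catenin, which activates TCF/LEF target genes. Some ligands, such as WNT5A and WNT5B, are best known for signalling without beta-catenin, through ROR1, ROR2 or RYK. R-spondins bind LGR receptors and keep frizzleds at the cell surface by blocking the ubiquitin ligases RNF43 and ZNRF3, while SFRP proteins and WIF1 bind ligands and DKK1 blocks LRP5 and LRP6. In the lung, the pathway is known for its part in airway branching and in the upkeep of alveolar cells.

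Total counts were 16018260 to 19357144 per library. RN7SK had no row in the tables used here, so the targeted gene gives no check of the labels. A549 cells are known to lack CDKN2A, yet this gene had 923 to 1005 counts in the libraries labelled control, against 0 to 2 in those labelled knockout. Its neighbour CDKN2B had 216 to 241 counts against 0 to 1. Every direction below is therefore that of the labels, and in every fold change below an effect of the knockout and a difference between cell lines cannot be told apart. Among 6 epithelial markers, 4 could be tested and these 4 rose. The sum over the 6 was 3287.4 to 3503.0 CPM (counts scaled to the library total, with edgeR's library factors) in the control. In the knockout libraries it was 5948.2 to 6059.7 CPM. The untested EPCAM had means of 0.53 CPM (control) and 0.446 CPM (knockout), and the untested KRT19 had 0.0535 and 0.0783 CPM. Of 8 endothelial markers, CDH5, ENG, ESAM and ROBO4 were tested and fell, of which CDH5, ENG and ROBO4 passed the filter through the control libraries alone and so had to differ. The untested KDR, TEK, PECAM1 and VWF had higher mean CPM in the knockout libraries. The endothelial sum was 162.5 to 175.2 CPM in the control and 4.19 to 4.92 CPM in the knockout libraries, with the defining markers PECAM1 at 0.0349 CPM and VWF at 0 in the control. Of the alveolar and airway markers 3 of 4 tested rose, of the fibroblast markers 3 rose and 1 fell of 4, and of the haematopoietic markers 3 of 3 rose. Over all tested genes, 42.0% rose and 43.0% fell (edgeR adjusted p under 0.05), so a call alone does not set a marker apart. The sum of 10 alveolar and airway markers was 125.5 to 141.2 and 923.3 to 1014.9 CPM, and most of the difference was in the airway mucins MUC5B (means of 34.3 and 726.8 CPM) and MUC5AC (14.2 and 154.4 CPM). The alveolar ABCA3 was at 81.6 and 83.5 CPM, SFTPA1 and SFTPB were at 0 in both groups, and SFTPC and SFTPD were near 0. The sum was, for 10 fibroblast markers, 73.8 to 77.9 and 115.8 to 123.8 CPM, and, for 7 haematopoietic markers, 34.5 to 38.2 and 54.7 to 58.9 CPM (CD3E at 0 in both, PTPRC at 0 in the control). The part of these marker differences in the results below was not tested. In bulk libraries, fewer cells with a transcript and less of it per cell cannot be told apart.

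Of the 46 genes, 32 passed the filter on low counts and were tested. In the libraries labelled knockout, 22 of them rose, 9 fell and 1, FZD4, did not pass (edgeR quasi-likelihood test, adjusted p under 0.05 over all 12929 tested genes). Most of the transcriptome differed between the groups, since 85.0% of all tested genes were called, 42.0% as higher and 43.0% as lower. Of the 32 Wnt genes, 29 had CPM that did not overlap between the groups, 20 higher and 9 lower in the knockout libraries, where the shares over all tested genes were 85.6% in either direction, 42.4% higher and 43.2% lower. Being called therefore does not set a Wnt gene apart. A change of at least 2-fold was called for 20 of the 32, 14 higher and 6 lower, against 33.6% of all tested genes (19.5% higher and 14.1% lower). The median log2 fold change (knockout over control) was 0.6 for the 32 and -0.01 for all tested genes. Setting the 1 gene at 0 in the control to its lower bound could not move this median, since that bound also lies above it. Of the 32 genes, 5 passed the filter through 1 group alone, which had to make them differ: FZD9, SFRP4, WNT4 and WNT6 were under its level of 0.539 CPM in the control mean, and WNT7A in the knockout mean. All 5 are among the 20 genes with a change of at least 2-fold, so part of that count was fixed by the filter.

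**Figure D1:**
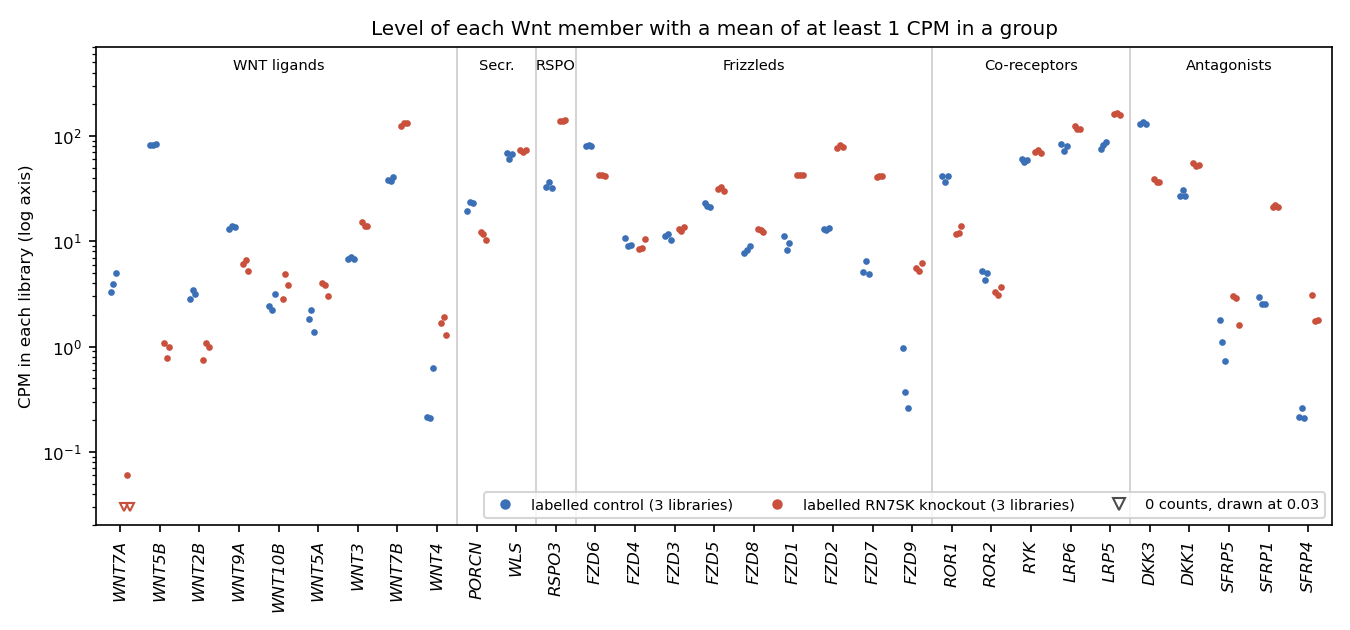
CPM in each library on a log axis, for the 31 Wnt genes whose mean reached 1 CPM in either group; blue points are the 3 libraries labelled control and red points the 3 labelled knockout. WNT5B and WNT7A lie far lower in red than in blue, while FZD2, FZD7, RSPO3 and SFRP1 lie higher in red with no overlap.

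A limit applies to every level compared here. The gene lengths behind the deposited FPKM (fragments scaled by gene length and library size) differed between the groups: 9 of the 34 Wnt genes with a length in both agreed within 1%, and 32.3% of all genes did. Fold changes below are from counts, and the value with each group's length as an offset is given where it ends a call or moves the fold by over 1.5 times. With the offset, 85.2% of all genes fitted were called, 31 of the 32 Wnt genes could be fitted, 0 of these changed direction, and their median log2 fold change was 0.94. Among genes whose lengths agreed within 1%, 85.1% were called. In GENCODE's annotation the exons of DKK1, FZD6, WLS, WNT2, WNT4 and WNT11 overlap genes on the other strand that have no row in the tables used here, so these values are uncertain if the counting ignored strand.

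Among the ligands, 6 rose and 4 fell of 10 tested, where 42.0% of all tested genes rose and 43.0% fell. The leading ligand of the cells was a different one in each group. WNT5B (chromosome 12, 1617056 to 1647212, GRCh38), a ligand best known for beta-catenin-independent signalling, had 82.6, 82.9 and 84.2 CPM in control replicates 1 to 3 and 1.08, 0.777 and 0.984 CPM in knockout replicates 1 to 3. The control libraries were near-identical, and every knockout library was close to 1 CPM. It fell 87.0-fold (log2 fold change -6.44 ± 0.108 SE, edgeR adjusted p = 1.66e-32), or 87.6-fold as a ratio of summed counts (95% counting interval 66.2 to 118.6). The recovered lengths were 3861 bases (control) and 3876 bases (knockout), and the log2 fold change with the offset was -6.51.

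WNT7B (chromosome 22, 45920366 to 45977162), which can signal through beta-catenin and is known from lung development, went the other way. It had 38.0, 37.7 and 40.4 CPM in the control and 125.1, 133.8 and 134.2 CPM in the knockout libraries. All 3 knockout libraries lay above every control library, and WNT7B rose 3.39-fold (log2 fold change 1.76 ± 0.055, edgeR adjusted p = 6.97e-25). Its close paralog WNT7A (chromosome 3, 13816258 to 13880071) had 61, 75 and 95 counts in the control libraries and 0, 1 and 0 in the knockout libraries. WNT7A fell, with a ratio of summed counts of 210 (95% counting interval 37.3 to 8330.9). That single knockout count sets its fitted log2 fold change of -7.27, which was -9.22 without knockout replicate 2 and -8.05 with the lengths as an offset. The 2 paralogs thus moved in opposite directions, although the counting of reads that fit both is not described.

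Shares of the ligands' summed FPKM show the exchange on a scale that accounts for length. WNT5B made up 54.7 ± 1.06% of it in the control (SD, n = 3) and 0.611 ± 0.117% in the knockout libraries, and WNT7B made up 23.8 ± 0.417% and 78.5 ± 1.26%. The sum itself was 37.4, 38.1 and 39.4 FPKM in the control and 38.3, 40.8 and 40.3 FPKM in the knockout libraries. These sums overlapped between the groups while the make-up did not. Shares and sums are given as a description; with 3 libraries against 3, an exact two-sided permutation test cannot go below p = 0.1.

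**Figure D2:**
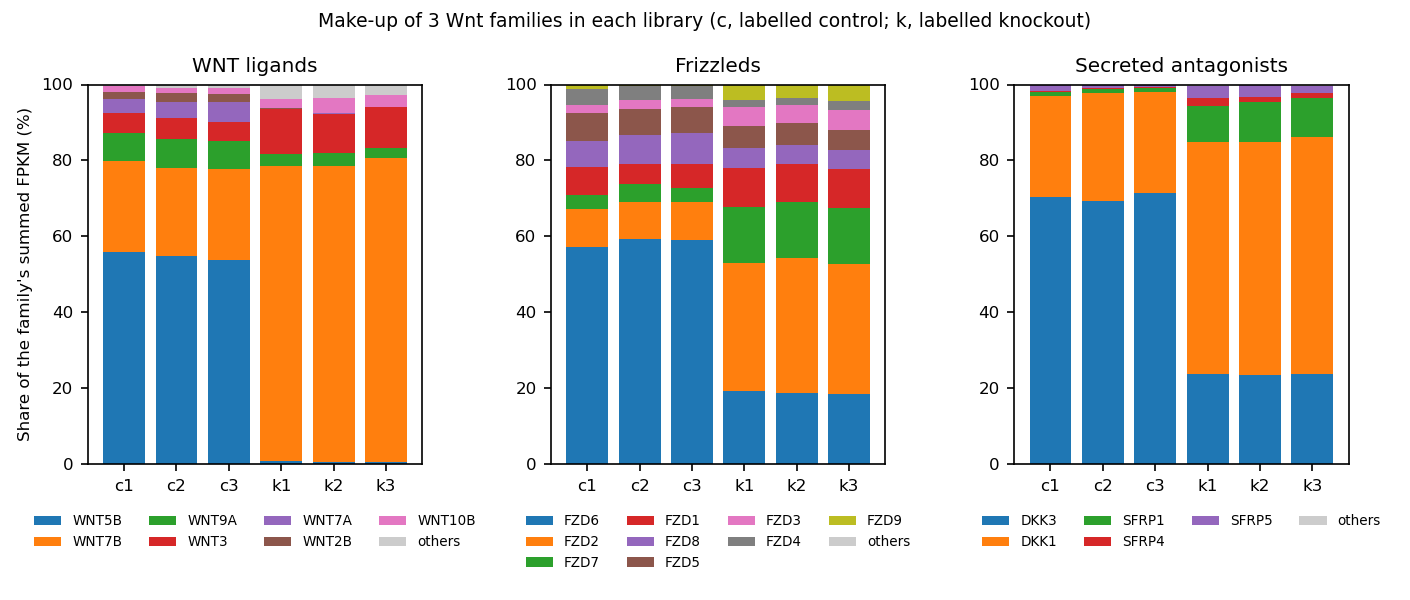
Share of each gene in the summed FPKM of the WNT ligands, the frizzleds and the secreted antagonists, in percent, for each of the 6 libraries (c1 to c3 labelled control, k1 to k3 labelled knockout). The largest share passes from WNT5B to WNT7B, from FZD6 to FZD2 and from DKK3 to DKK1, and the 3 libraries of a group look alike.

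The next ligands in order of FPKM were also different. In the control, WNT9A (2.84 ± 0.099 FPKM), WNT3 (2.0 ± 0.0433), WNT7A (1.71 ± 0.35) and WNT2B (0.854 ± 0.0859) followed, and the spread of WNT3 and WNT7A overlapped. In the knockout libraries WNT3 (4.35 ± 0.173 FPKM) came second, and WNT9A (1.27 ± 0.156) and WNT10B (1.21 ± 0.329) did not differ beyond their spread. WNT3 (chromosome 17, 46762506 to 46818692), a classical beta-catenin ligand, had 6.81, 7.07 and 6.8 CPM in the control and 15.1, 14.1 and 14.0 CPM in the knockout libraries, and rose 2.09-fold. WNT9A had 13.1, 14.1 and 13.7 CPM against 6.02, 6.69 and 5.17 CPM, and fell 2.28-fold, with no overlap between the groups.

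WNT2B, known as a ligand of lung specification, had 2.81, 3.46 and 3.19 CPM in the control and 0.753, 1.08 and 0.984 CPM in the knockout libraries. It fell 3.37-fold in counts; its recovered lengths were 3592 bases (control) and 12252 bases (knockout), and with the lengths as an offset its log2 fold change was -3.57 in place of -1.75. Its exons overlap those of ST7L on the other strand, which had 154 to 178 counts in the control and 130 to 160 in the knockout libraries, and the strand setting of the counting is not given in the sources used here. WNT5A, the paralog of WNT5B, had 1.84, 2.2 and 1.36 CPM against 3.98, 3.88 and 3.01 CPM and rose 2.02-fold, so that WNT5A and WNT5B also moved in opposite directions. In FPKM, WNT5A was at 0.0944 ± 0.0222 and WNT5B at 21.0 ± 0.17 in the control. In the knockout libraries WNT5A was at 0.244 ± 0.0346 and WNT5B at 0.242 ± 0.0395 FPKM, a pair that did not differ beyond its spread. This rests on their recovered lengths of 14721 and 3876 bases in those libraries. In CPM, WNT5A (3.63 ± 0.532) lay above WNT5B (0.945 ± 0.153) there, without overlap.

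The other ligands were low in both groups. WNT10B had 2.43, 2.2 and 3.14 CPM in the control and 2.8, 4.9 and 3.81 CPM in the knockout libraries, which overlapped. It was called as higher (log2 fold change 0.56 ± 0.21, edgeR adjusted p = 0.0151), but not without knockout replicate 2 (adjusted p = 0.181) or control replicate 1 (0.0568), with a range of 5.3e-05 to 0.528 in all alternatives. WNT4 had 0.216, 0.209 and 0.627 CPM against 1.67, 1.91 and 1.29 CPM; it rose 4.55-fold, with a log2 fold change of 2.19 and of 2.89 without control replicate 3, its highest control library. WNT6 had 0 counts in every control library and 15, 10 and 9 counts in the knockout libraries, and was at least 12.5-fold higher against a floor of 3 counts over the control group.

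The promoters of WNT5B and WNT7A are shown because these ligands had the largest falls of all Wnt genes tested; 2.59% of all tested genes fell at least 10-fold. The 250 bases before the RefSeq start (GRCh38.p14) lie at chr12:1616806-1617055 on the plus strand for WNT5B and at chr3:13880072-13880321 on the minus strand for WNT7A. Both are written 5′ to 3′ on the strand of the gene.
WNT5B: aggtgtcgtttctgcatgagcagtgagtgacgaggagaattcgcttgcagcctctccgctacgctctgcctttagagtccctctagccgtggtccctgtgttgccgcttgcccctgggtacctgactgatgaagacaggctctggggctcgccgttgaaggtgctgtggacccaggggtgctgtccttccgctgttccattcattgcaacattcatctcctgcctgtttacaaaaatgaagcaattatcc
WNT7A: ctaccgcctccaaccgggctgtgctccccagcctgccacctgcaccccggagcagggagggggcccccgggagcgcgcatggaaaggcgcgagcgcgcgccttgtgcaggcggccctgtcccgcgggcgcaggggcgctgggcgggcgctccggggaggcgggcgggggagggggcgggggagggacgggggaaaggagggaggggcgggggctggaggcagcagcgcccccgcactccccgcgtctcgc
The 2 windows have little in common in base composition. WNT5B's holds 54.8% G and C and 10 CpG dinucleotides, close to the medians of 58.0% and 11 over 35116 promoters of this length, and WNT7A's holds 80.4% and 29. Neither contains CTTTGA, the core letters of a TCF/LEF motif, on either strand. That motif was found in 11.2% of all promoters and in 1 of the 33 Wnt genes with a promoter in the table.

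Of the secretion genes, PORCN fell and WLS changed little. PORCN, the acyltransferase of the ligands (chromosome X, 48508992 to 48520814), had 19.2, 23.6 and 23.2 CPM in the control and 12.3, 11.7 and 10.3 CPM in the knockout libraries. It fell 1.92-fold (edgeR adjusted p = 8.39e-11), and each knockout library was below each control library. WLS had 68.5, 60.4 and 67.4 CPM against 74.2, 70.6 and 73.7 CPM, close together but without overlap. Its rise of 1.11-fold passed the test (edgeR adjusted p = 0.0129) but not without knockout replicate 1 (0.0606) or control replicate 2 (0.0788), and over all alternatives the adjusted p ranged from 0.000207 to 1.

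RSPO3 was the R-spondin of these cells and rose in the knockout libraries. This agonist (chromosome 6, 127118671 to 127199481) had 33.1, 36.3 and 32.4 CPM in the control and 139.8, 139.4 and 140.5 CPM in the knockout libraries. It rose 4.12-fold (log2 fold change 2.04 ± 0.055, edgeR adjusted p = 1.14e-26), and its 3 knockout libraries were nearly equal. The lengths behind its FPKM were 5423 bases (control) and 3001 bases (knockout). With the offset its log2 fold change was 2.84, and its FPKM were 6.09 ± 0.373 and 46.2 ± 0.457. RSPO1, RSPO2 and RSPO4 had 0 counts in the control and at most 6 in any knockout library. Their low counts leave RSPO3 with 99.8% of the R-spondins' summed FPKM in the knockout libraries.

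Among the 9 frizzleds, 7 rose, FZD6 fell and FZD4 did not pass, where 42.0% of all tested genes rose and 43.0% fell. The 7 include FZD9, which passed the filter through the knockout libraries alone, and FZD3 and FZD8, whose calls are qualified below. The largest rises in CPM were in the closely related receptors FZD1, FZD2 and FZD7. FZD2 (chromosome 17, 44557484 to 44561262) had 13.2, 12.7 and 13.3 CPM in the control and 76.2, 82.6 and 79.1 CPM in the knockout libraries, and rose 6.07-fold (log2 fold change 2.6 ± 0.068, edgeR adjusted p = 3.47e-27). FZD7 (chromosome 2, 202033855 to 202038441) had 5.08, 6.49 and 4.91 CPM against 40.4, 41.8 and 41.4 CPM, and rose 7.48-fold. FZD1 (chromosome 7, 91264433 to 91271326) had 11.3, 8.22 and 9.72 CPM against 42.2, 42.6 and 43.0 CPM. It rose 4.37-fold in counts, and by 1.41 in place of 2.13 on the log2 scale with the offset, with lengths of 4350 bases (control) and 6894 bases (knockout). In each of the 3 receptors every knockout library was far above every control library.

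FZD6, a receptor of planar polarity (chromosome 8, 103298494 to 103332866), was the only frizzled called as lower. It had 79.6, 81.6 and 80.9 CPM in the control and 43.0, 42.7 and 41.5 CPM in the knockout libraries, and fell 1.9-fold (edgeR adjusted p = 7.68e-17). FZD3, its nearest relative, had 11.1, 11.7 and 10.3 CPM against 13.0, 12.4 and 13.7 CPM. Its call as higher (log2 fold change 0.24 ± 0.102, edgeR adjusted p = 0.0306) rests on the setting. It was lost under DESeq2 (0.0586), with no low-count filter (0.0551), and without knockout replicate 1 (0.0651) or 3 (0.114) or control replicate 1 (0.0585) or 3 (0.118). FZD3 also had the most unequal lengths of the frizzleds, 14093 bases (control) and 4245 bases (knockout), and with these as an offset the log2 fold change was 1.91 (edgeR adjusted p = 6.24e-18).

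The related FZD5 and FZD8 rose by less. FZD5 had 23.1, 21.7 and 21.3 CPM in the control and 31.6, 32.7 and 30.3 CPM in the knockout libraries, and rose 1.43-fold. FZD8 had 7.78, 8.32 and 9.04 CPM against 13.1, 12.7 and 12.3 CPM and rose 1.51-fold in counts, but its log2 fold change with the offset was 0.2 and did not pass (edgeR adjusted p = 0.095), its lengths being 3186 and 4050 bases. FZD9 had 0.972, 0.367 and 0.261 CPM against 5.54, 5.2 and 6.27 CPM. It rose 10.6-fold, or by 4.13 in place of 3.4 on the log2 scale without control replicate 1, the highest control library. FZD4, a receptor known from vascular growth, had 10.8, 9.11 and 9.15 CPM against 8.39, 8.54 and 10.6 CPM, and the groups overlapped (log2 fold change -0.08 ± 0.121, edgeR adjusted p = 0.531). Its exons overlap those of PRSS23 on the other strand, which had 2978 to 3007 counts in the control and 5512 to 6267 in the knockout libraries, so reads of the 2 genes may not be told apart.

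As a family, the frizzleds were higher and differently made up in the knockout libraries. Their summed FPKM was 34.5, 34.0 and 33.8 in the control and 59.3, 60.9 and 61.0 for the knockout libraries. FZD6 held 58.6 ± 1.11% of the sum in the control (SD, n = 3) and 18.9 ± 0.53% in the knockout libraries. FZD2 held 9.76 ± 0.218% and 34.4 ± 0.913%, FZD7 held 4.07 ± 0.653% and 14.7 ± 0.0512%, and FZD1 held 6.39 ± 0.972% and 10.1 ± 0.108%. In the summed FPKM, the 2 groups did not overlap, unlike those of the ligands.

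**Figure D3:**
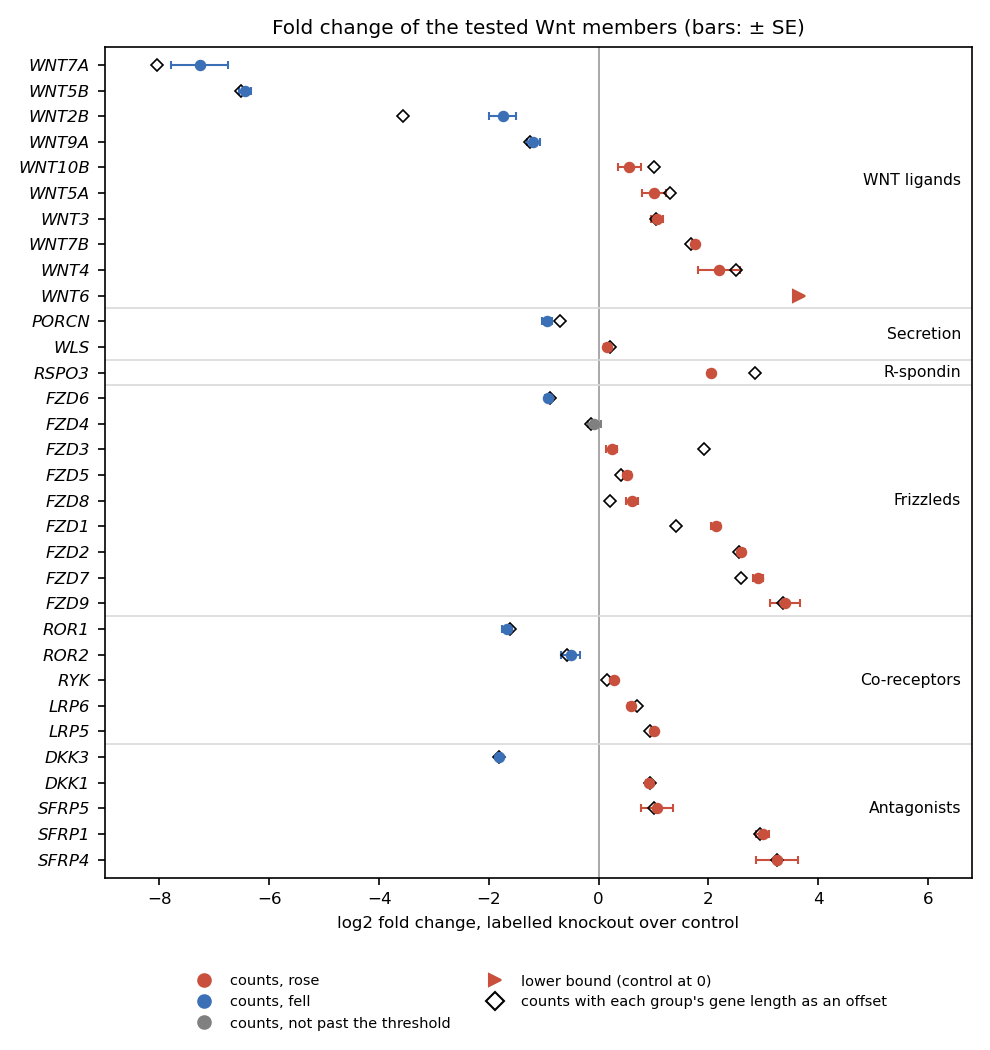
Log2 fold change of the 32 tested Wnt genes, labelled knockout over control, with bars of ± SE from edgeR; red circles rose, blue circles fell and the grey circle did not pass, and open diamonds are the same comparison with each group's gene length as an offset. The triangle marks the lower bound of WNT6, and circle and diamond lie farthest apart for WNT2B, FZD3, RSPO3, WNT7A and FZD1.

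The co-receptors of the beta-catenin branch rose, and the ROR receptors fell. LRP5 (chromosome 11, 68298412 to 68449275), which with a frizzled starts beta-catenin signalling, had 75.5, 81.4 and 87.0 CPM in the control and 161.3, 165.4 and 159.9 CPM in the knockout libraries. It rose 1.99-fold (edgeR adjusted p = 1.04e-18), with lengths of 5824 and 5826 bases. Its partner gene LRP6 (chromosome 12, 12116025 to 12267044) had 83.8, 71.7 and 80.6 CPM against 123.2, 116.5 and 116.1 CPM and rose 1.51-fold. In both, the groups lay apart, as they did for 85.6% of all tested genes.

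ROR1 (chromosome 1, 63774017 to 64181498), a receptor tyrosine kinase-like protein that binds WNT5A, had 41.9, 36.8 and 41.3 CPM in the control and 11.8, 12.0 and 13.9 CPM in the knockout libraries. It fell 3.18-fold (log2 fold change -1.67 ± 0.082, edgeR adjusted p = 2.98e-19). ROR2, its paralog, had 5.19, 4.24 and 4.97 CPM against 3.28, 3.11 and 3.69 CPM, a smaller fall of 1.43-fold (edgeR adjusted p = 0.00576). RYK, a further receptor of WNT5A, had 60.1, 56.4 and 59.6 CPM against 70.7, 73.0 and 68.5 CPM and rose 1.21-fold. The groups did not overlap for any of the 3, as for 85.6% of all tested genes, and the rise of RYK was small.

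Of the 5 secreted antagonists that could be tested, DKK3 fell and DKK1, SFRP1, SFRP4 and SFRP5 rose. Over all tested genes, 42.0% rose and 43.0% fell. DKK3 (chromosome 11, 11963036 to 12009745), a divergent member of the Dickkopf family, had 131.3, 134.7 and 129.9 CPM in the control and 39.2, 36.9 and 36.7 CPM in the knockout libraries, and fell 3.5-fold (edgeR adjusted p = 2.03e-25). DKK1 (chromosome 10, 52314281 to 52317657), which binds LRP5 and LRP6 and is itself a known beta-catenin target gene, had 27.2, 30.4 and 26.9 CPM against 54.9, 52.2 and 52.6 CPM. It rose 1.89-fold (log2 fold change 0.92 ± 0.065, edgeR adjusted p = 6.69e-15). Each group's 3 libraries lay close together in both genes.

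The promoter of DKK1 is shown because DKK1 was the only one of the 33 Wnt genes with a promoter in the table that had CTTTGA in its window; the other 13 were not searched. The 250 bases lie at chr10:52314031-52314280 on the plus strand, with the motif on either strand in capitals, starting 149 and 95 bases before the start.
DKK1: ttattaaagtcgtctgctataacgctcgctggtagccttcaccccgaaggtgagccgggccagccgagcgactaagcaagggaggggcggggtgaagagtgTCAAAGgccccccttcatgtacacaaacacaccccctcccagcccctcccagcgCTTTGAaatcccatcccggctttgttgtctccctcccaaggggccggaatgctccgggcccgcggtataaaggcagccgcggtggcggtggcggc
A match of these letters is a description of the sequence and was not tested as a site. The window holds 62.8% G and C and 18 CpG dinucleotides.

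The SFRP proteins carry a frizzled-like domain and bind Wnt ligands. SFRP1 (chromosome 8, 41261962 to 41309473) had 2.97, 2.51 and 2.56 CPM in the control and 21.0, 22.0 and 21.2 CPM in the knockout libraries, and rose 7.96-fold (log2 fold change 2.99 ± 0.121, edgeR adjusted p = 1.38e-21). SFRP4 had 0.216, 0.262 and 0.209 CPM against 3.12, 1.73 and 1.78 CPM and rose, with a ratio of summed counts of 9.81 (95% counting interval 5.52 to 19). Its knockout replicate 1 was the highest, and all 3 were above the control. SFRP5 had 1.78, 1.1 and 0.732 CPM against 3.01, 2.87 and 1.6 CPM; it passed the test (fold 2.09, edgeR adjusted p = 0.00129), but the groups overlapped.

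In FPKM the antagonists' sum was 52.8, 54.7 and 51.3 in the control and 49.2, 46.6 and 46.5 for the knockout libraries, without overlap. In CPM, where lengths do not enter, the sum was 164.2 ± 4.34 (control) and 117.3 ± 3.88 (knockout), so the size of the difference depends on the scale. DKK3 held 70.4 ± 0.923% of the FPKM sum in the control and 23.7 ± 0.102% in the knockout libraries (SD, n = 3). DKK1 held 27.2 ± 1.02% and 61.6 ± 0.843%.

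The 14 Wnt genes that did not pass the filter were low everywhere, with at most 13 counts in a library. DKK4 had 0 counts in all 6 libraries, which over either group allows at most the floor of 3 counts. WNT3A, WNT10A and WNT11 had counts in both groups that overlapped: 0 to 2, 0 to 3 and 0 to 7 in the control and 0 to 1, 1 to 4 and 3 to 7 in the knockout libraries. The other 10 had 0 counts in the control and some in the knockout libraries. WNT16 had 13, 6 and 8 there, which is at least 9.9-fold higher against the floor of 3 counts over the control group. With no low-count filter, 73.2% of all genes would be called, among them 6 of the 10 (DKK2, RSPO1, RSPO2, WIF1, WNT8B and WNT16, edgeR adjusted p from 1.49e-06 to 0.0324). RSPO1 had 0, 2 and 4 counts in the knockout libraries and overlapped the control.

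The rest of the pathway was read from a list of 65 other Wnt pathway genes. Of these, 62 were in the tables and 57 were tested; 26 rose, 22 fell and 9 did not pass, where 42.0% of all tested genes rose and 43.0% fell. Their median log2 fold change was 0.04, against -0.01 for all tested genes. Of the 26, LGR5, LGR6, TRABD2B and DRAXIN were under the filter's level in the control mean, passed it through the knockout libraries alone and so had to differ. With the lengths as an offset, 25 rose and 24 fell. CSNK1A1 then changed direction, with a log2 fold change of -0.79 in place of 0.27 and lengths of 2795 bases (control) and 5628 bases (knockout). TPBG and CAMK2G lost their calls with the offset, and DVL3, GSK3B and NFATC3 gained one. Among 13 tested genes of receptor turnover and co-receptors, 7 rose and 6 fell. RNF43 and ZNRF3, the membrane ubiquitin ligases that remove frizzleds and that R-spondins block, rose from 5.68 ± 0.485 to 97.3 ± 1.61 CPM and from 35.0 ± 2.81 to 76.9 ± 1.95 CPM (SD, n = 3). LGR5, an R-spondin receptor, had 1 count over the control group and 446 over the knockout group, a ratio of 490.5 (95% counting interval 87.6 to 19418.5). GPC4, a glypican of the cell surface, fell from 16.2 ± 0.679 to 5.55 ± 0.761 CPM.

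Among 27 tested genes of the cytoplasm and nucleus, 11 rose, 11 fell and 5 did not pass. The shares over all tested genes were 42.0% higher and 43.0% lower. The feedback inhibitors NKD1 and AXIN2, known as beta-catenin targets, rose from 2.14 ± 0.357 to 82.6 ± 0.949 CPM and from 9.93 ± 0.618 to 52.5 ± 1.06 CPM. Other genes of the list, picked by their direction after their values were seen, fell, while RNF43 and ZNRF3, described above, rose. NKD2, the paralog of NKD1, fell 4.54-fold, and LEF1, a transcription factor of the pathway, fell 3.24-fold. NOTUM, a secreted feedback inhibitor from the first group of the list, fell 2.33-fold. The corepressor gene TLE1 rose 3.03-fold and the signal transducer DVL2 2.87-fold. Beta-catenin's own mRNA, CTNNB1, fell 1.27-fold from 324.4 ± 5.02 to 255.4 ± 9.23 CPM. Of the destruction complex that degrades it, APC fell 1.39-fold, AXIN1 rose 1.27-fold and GSK3B did not pass (log2 fold change 0.04 ± 0.049, edgeR adjusted p = 0.394; 0.0394 with the lengths as an offset).

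Among 17 tested genes of planar polarity and calcium signalling, 8 rose, 5 fell and 4 did not pass. Of all tested genes, 42.0% rose and 43.0% fell. PRICKLE1 and PRICKLE2, cytoplasmic polarity proteins, rose 19.6-fold and 7.74-fold. PTK7, a membrane co-receptor of the polarity branch, fell 15.3-fold from 48.2 ± 2.74 to 3.17 ± 0.683 CPM, and the kinase gene ROCK1 fell 2.53-fold. Except for GSK3B, the genes named from the list with a fold or levels passed with edgeR adjusted p of at most 1.61e-06.

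**Figure D4:**
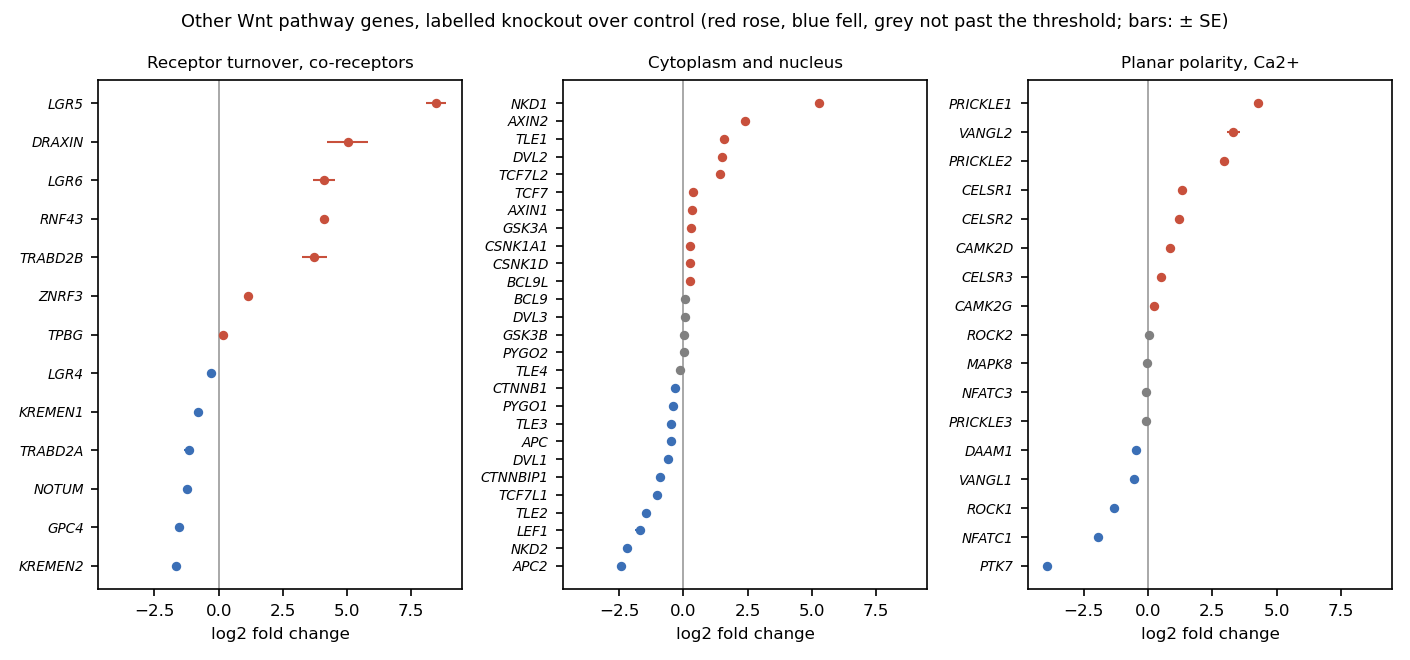
Log2 fold change, labelled knockout over control, of the 57 other Wnt pathway genes tested, in 3 groups, with bars of ± SE from edgeR; red rose, blue fell, grey did not pass. Genes on either side of 0 are seen in each panel, and the fitted values of LGR5 and DRAXIN each rest on 1 count over the control group.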

How the data were processed

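Counts were compared between 3 libraries labelled control and 3 labelled RN7SK knockout. Per the labels' protocols, TRIzol was used for total RNA and an mRNA-Seq kit for the libraries. Per the submitters' processing notes, HISAT2 2.2.1.0, Trimmomatic 0.36 and FastQC 0.11.5 were used with GRCh38, in no stated role or order. Which counter, annotation and strand setting were used is not given in the sources used here. The authors deposited whole-number read counts per gene symbol and FPKM for each library. Gene lengths were recovered by dividing count by FPKM and by a scaling total for each library. That total was chosen so that most lengths of shorter genes came out whole (within 0.02 bases). Longer genes did not enter this choice, and each group's length is the median over its libraries.

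Counts were fitted in R 4.3.3 with edgeR 4.0.16 (filterByExpr, trimmed mean of M values, robust glmQLFit, glmQLFTest; two-sided, Benjamini-Hochberg over 12929 genes, threshold 0.05). Over the 6 libraries, edgeR's common coefficient of biological variation came to 0.0443. Fold changes are from the fit and SE is the log2 fold change over the root of its F statistic. Counting intervals (95%, exact Clopper-Pearson) and the floor of 3 counts cover counting error only. Libraries within a group differed by more than sampling noise (chi-square over its degrees of freedom, 1.73 to 8.04). Coordinates are RefSeq's (GRCh38.p14) and exon overlaps are from GENCODE.

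Wnt genes whose mean reached 1 CPM in either group are given by library, others by counts. Of the other pathway genes, the 4 with the smallest p in each group of the list, CTNNB1, APC, AXIN1 and GSK3B were named by rule. DRAXIN, LGR6, TRABD2B, NKD2, LEF1, NOTUM, CSNK1A1, TPBG, CAMK2G, DVL3 and NFATC3 were added after their values were seen. The members and lists were chosen with earlier results of these data known. Alternatives were other scalings, low-count filters and thresholds, DESeq2 1.42.0, limma 3.58.1 (voom, and trend on log2(FPKM + 0.1) and log2(FPKM + 1)), recovered lengths as an offset, a replicate block, leaving out each library and, added after the data were seen, genes whose lengths agreed within 1%. Figures were made in Python 3.11.15.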

Additional observations from a re-analysis of the deposited data

How the results depend on the processing

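The counts of Wnt genes that rose (22) and fell (9) stayed within 1.5 times under every alternative listed with the processing except the restriction to equal lengths. Leaving out each library in turn gave 20 to 21 that rose and 9 that fell, and for the other pathway genes 26 and 22 to 23. The replicate numbers of the labels do not pair the libraries (correlations of same-numbered deviations 0.018, -0.025 and -0.008). With a replicate block 22 rose and 9 fell, and 26 and 22 of the other pathway genes, as without it. Against a 1.5-fold change (glmTreat), 5967 of all genes were called in place of 10992, and 15 Wnt genes rose and 8 fell, while 17 and 14 of the other pathway genes were called. Among genes whose lengths agreed within 1%, which leaves 4057 genes and 9 Wnt genes to test, 3451 of all were called, 5 Wnt genes rose and 3 fell, and 11 and 9 of the other pathway genes. Of 614 values of single Wnt genes under alternatives, 591 kept direction and call, 22 kept direction and lost the call, and FZD4, not called, had 0.01 with upper-quartile factors. On log2(FPKM + 1) low genes shrink: WNT7A had a log2 fold change of -1.42, WNT6 0.46 and SFRP4 0.7, all still called. The 14 Wnt genes under the low-count filter were not tested in the main fit, and 6 of them were called with no filter.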
